A study of Mus musculus with 10 samples.

Results

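Interferons are cytokines that tell a cell to raise its defence against viruses. They bind receptors that signal through JAK kinases and STAT factors, and with interferon regulatory factors (IRFs) these turn on a broad set of interferon-induced genes. The same signals raise class I antigen presentation, by which every nucleated cell shows peptides from its own proteins to CD8 T cells, and class II presentation, by which macrophages, dendritic cells and B cells show peptides they have taken up to CD4 T cells. In the heart, low basal levels of these genes come from cardiomyocytes, endothelium, fibroblasts and resident macrophages together.

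The genes described here are 39 listed genes in 4 groups: 20 interferon-induced effectors, 8 IRF and STAT factors, 6 class I genes and 5 class II genes. They were matched by symbol among 56748 gene identifiers, all 39 were found, and all 39 passed the filter on low counts that left 15454 genes for testing. The rule names genes by function and uses no measured value, but the lists were chosen with earlier results of these data known.

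Bulk RNA sequencing was made from whole hearts, atria included, of male wild-type C57BL/6 mice, 8 weeks old when they were bought. The training group (5 hearts) ran on a treadmill at 15 m/min for 120 min a day over 8 weeks, with rests of 2 min within a session, and the sedentary control group (5 hearts) did not. Each library came from 1 mouse, and both groups were wild type. In the paper, animals of both groups had a PET/CT scan under isoflurane, with an injected radioactive tracer, at the end of the schedule. Libraries held 29461697 to 35945417 gene counts in the training group and 35196993 to 39431030 in the sedentary group. Levels are given as CPM, counts scaled to a common library size with TMM factors for library composition. Levels of different genes are compared as TPM, which also allow for gene length, unless a rank or a sum is named as CPM. Sums of CPM give more weight to long and abundant genes.

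The tissue check matched the label: the 10 cardiomyocyte markers summed to 66798 to 70920 CPM in training and 70385 to 80002 CPM in sedentary hearts. Of these 10, 9 had an estimate below 0 and Actc1 was called lower. Markers of other cells also moved with training. Sums of 10 endothelial markers were 1286 to 1343 CPM in training hearts and 1413 to 1486 CPM in sedentary hearts, with Tie1, Fabp4 and Esam called lower. Sums of 10 atrial markers were 7407 to 10684 CPM against 4438 to 9649 CPM, with Sln, Stard10 and Dkk3 called higher. All 8 fibroblast markers had an estimate above 0, and 3 of them were called higher (Pdgfra, Lum, Gsn). In whole-heart RNA, fewer cells of a type and less RNA per cell cannot be told apart, and the part of these shifts in the values below was not tested beyond the fit with an atrial marker score.

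Short sequences known from promoters of such genes were looked for, and examples are shown. Sequences are from RefSeq on GRCm38.p6, in windows of 250 bases before to 50 after each gene start, and 29 of the 39 genes had a window. The core of the interferon-stimulated response element (ISRE), GAAANNGAAA on either strand, is the kind of site that STAT2 and IRFs recognise. It was present in 10 of 14 interferon-induced genes with a window and in 2 of 8 IRF and STAT factors. The count was 1 of 5 for class I genes and 0 of 2 for class II genes. Of all genes with a window, 3.99% held it. Examples are printed 5′ to 3′ on the strand of the gene, with the ISRE core in capitals.
Ifit1 (chr19:34640789-34640828, plus strand): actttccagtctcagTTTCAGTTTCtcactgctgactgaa
Ifit3 (chr19:34583392-34583431, plus strand): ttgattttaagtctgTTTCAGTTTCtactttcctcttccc
Isg15 (chr4:156200866-156200905, minus strand): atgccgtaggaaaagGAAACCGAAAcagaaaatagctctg
Bst2 (chr8:71537572-71537611, minus strand): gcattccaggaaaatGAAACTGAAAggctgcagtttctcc
Gbp2 (chr3:142620589-142620628, plus strand): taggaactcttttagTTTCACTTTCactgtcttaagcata
B2m (chr2:122147533-122147572, plus strand): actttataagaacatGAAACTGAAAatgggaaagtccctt

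In Isg15 and Bst2 the printed core overlapped a neighbouring match. The gamma-activated site, TTCNNNGAA, a site of the interferon gamma branch, was present in 7 of the 29 genes, including Irf1 and Irf8. Of all genes with a window, 9.55% held it. CCAAT, the core of the Y box of class I and class II promoters, is also a common promoter element in general. It was present in 5 of 5 class I and 2 of 2 class II genes with a window. Over every group it was in 15 of the 29 genes, against 41.1% of all genes with a window. Examples carry it in capitals, read on the opposite strand as ATTGG.
H2-D1 (chr17:35263003-35263037, plus strand): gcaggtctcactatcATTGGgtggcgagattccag
H2-Aa (chr17:34287852-34287886, minus strand): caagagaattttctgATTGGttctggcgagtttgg
H2-Eb1 (chr17:34305793-34305827, plus strand): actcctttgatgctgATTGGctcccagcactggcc

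These matches are descriptions of letters, and binding was not measured. RefSeq windows were not in the table for Ifi27, Oas2, Mx1, Mx2, Usp18, Parp14, Nlrc5, Ciita, Cd74 and H2-Ab1.

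Of the 39 genes, Oas2 alone passed an FDR of 0.1, and it was lower after training. That is 1 gene, or 2.56%, against 7.01% of all tested genes called at that threshold (1084 of 15454, 425 higher and 659 lower, edgeR quasi-likelihood test with Benjamini-Hochberg adjustment). At an unadjusted p below 0.05 the count was 5 (12.8%), against 20.0% of all tested genes, with Ifit2, Ifi27, Gbp2 and Irf1 higher and Oas2 lower. No other gene of the 39 had groups that did not overlap, and among all tested genes 5.06% had such groups. The median log2 fold change was 0.01 over the 39 genes and 0.00 over all tested genes.

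**Figure D1:**
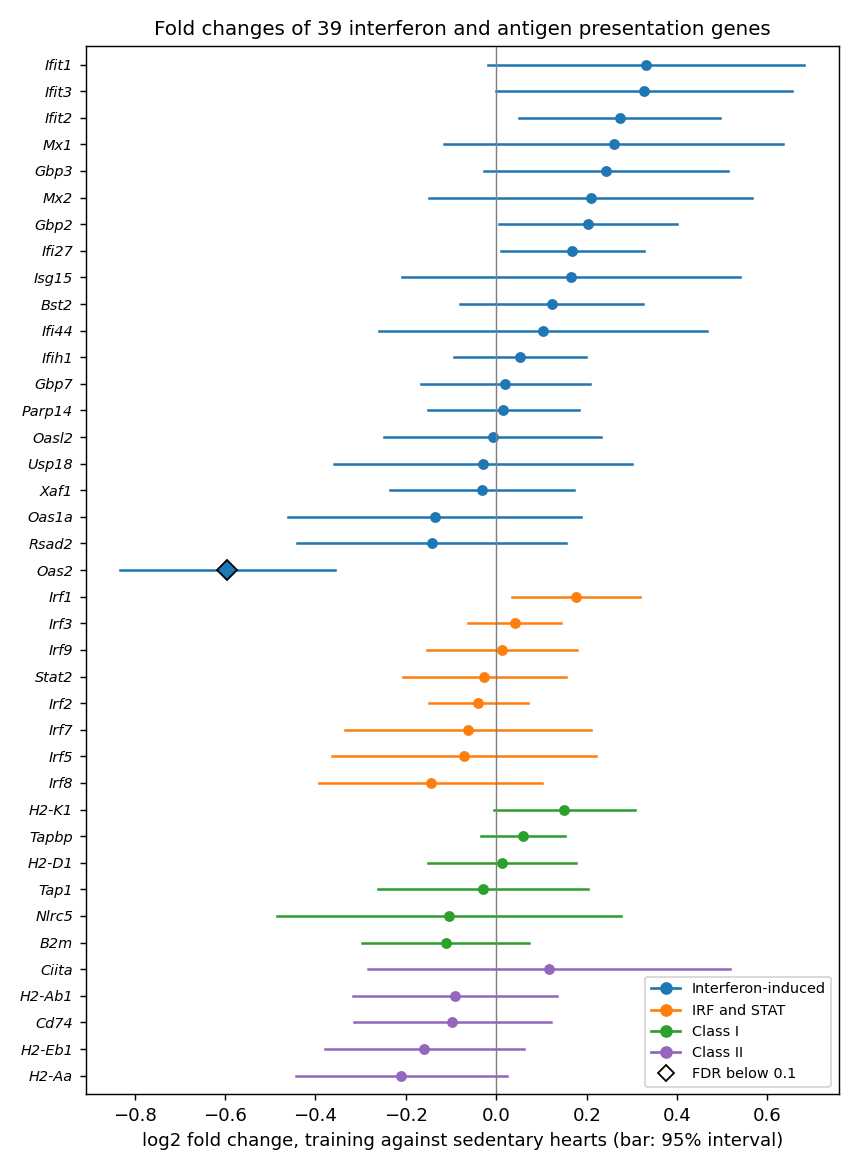
Log2 fold change of each of the 39 genes, training against sedentary hearts (x axis; points are edgeR estimates, bars their 95% intervals), in 4 groups of genes by colour, n = 5 hearts a group. The Oas2 diamond at −0.59 stands apart on the left, and the other 38 points lie between −0.21 and 0.33.

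Oas2 makes 2′-5′-oligoadenylates when it meets double-stranded RNA, and these activate RNase L, which degrades RNA. The gene lies on GRCm39 chr5:120868398-120887933, minus strand, next to Oas3 and other family members. In training hearts it was at 6.14, 7.73, 7.92, 7.22 and 7.93 CPM, and in sedentary hearts at 13.4, 11.3, 9.50, 9.10 and 12.4 CPM. Every training heart was below every sedentary heart. The mean was 7.39 ± 0.754 CPM after training against 11.1 ± 1.85 CPM (SD, n = 5 each), and the fitted log2 fold change was −0.59 (SE 0.111, 95% interval −0.83 to −0.36, adjusted p = 0.0169 in edgeR), a level 0.662 times that of sedentary hearts. The call remained without any 1 heart, at −0.66 to −0.52. It was lost when an atrial marker score entered the fit (−0.60, adjusted p = 0.12), a fit in which 86 of all genes were called.

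The other 7 listed genes of the family, all of which passed the filter, did not follow Oas2 past the threshold. Oasl2, a synthetase-like member of the family, was at 14.5 ± 2.50 CPM in training and 14.5 ± 1.71 CPM in sedentary hearts (SD, n = 5 each), with a log2 fold change of −0.01 and an interval of −0.25 to 0.23. Oas1a was at −0.14 (−0.46 to 0.19), Oas1b, whose C57BL/6 allele is truncated, at −0.03, Oas1g at −0.27, Oas3 at −0.01 and Oasl1 at −0.06. Oas1c had the opposite sign, at 0.42 (adjusted p = 0.290). The libraries held only 4 to 25 counts of Oas3 and its interval ran from −0.93 to 0.90, so a change the size of that in Oas2 was not detectable there. The interval of Oas1g, −0.81 to 0.27, also included the Oas2 estimate of −0.59, and that of Oasl1 ran from −0.58 to 0.45. Whether the change in Oas2 differed from that of its relatives was not tested.

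**Figure D2:**
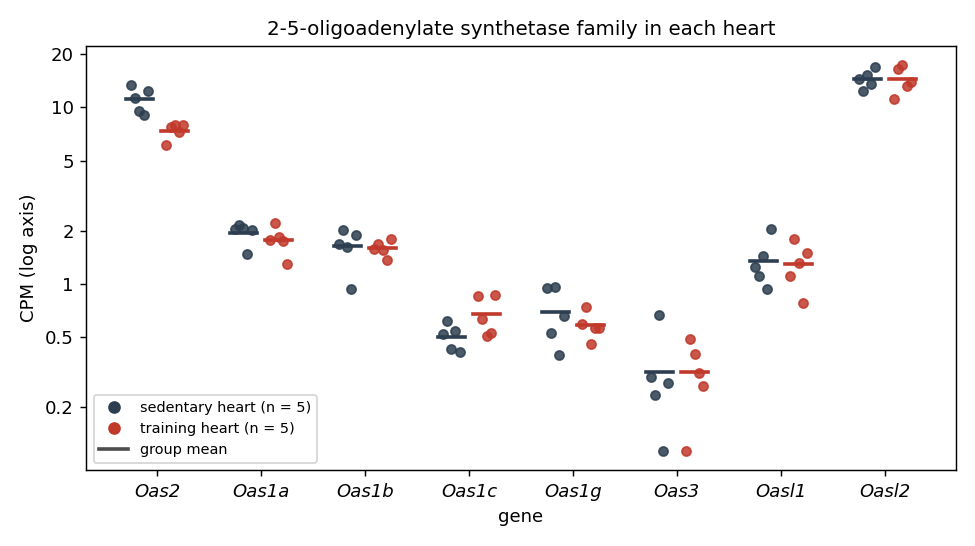
CPM of 8 genes of the 2′-5′-oligoadenylate synthetase family in each heart (log y axis; blue points sedentary, red points training, bars group means, n = 5 each). Training hearts lie at 6.14 to 7.93 CPM for Oas2, under all sedentary hearts, and the groups overlap in the other 7 genes.

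Among the 20 interferon-induced genes, 14 had a log2 fold change above 0 and 6 below, with a median of 0.11. The highest estimates were in the IFIT genes, RNA-binding inhibitors of translation that lie side by side on chromosome 19. Ifit1 was at 4.67, 7.79, 5.27, 4.86 and 5.97 CPM in training hearts and at 4.84, 3.80, 4.18, 3.67 and 6.16 CPM in sedentary hearts. The groups overlapped through sedentary hearts 1 and 5, and the log2 fold change was 0.33 (SE 0.163, −0.02 to 0.68, adjusted p = 0.274 in edgeR). Ifit3 stood at 0.33 (adjusted p = 0.252) and Ifit2 at 0.27 (adjusted p = 0.162). Reads shared with a close copy were many for Ifit3, whose RSEM counts were 1.47 times its unique counts, and the RSEM log2 fold change was 0.32.

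Ifi27, a small membrane protein, was the interferon-induced gene with the highest TPM, at 30.0 ± 3.29 in training and 25.5 ± 3.89 in sedentary hearts (SD, n = 5 each). Its CPM was 18.0, 17.2, 20.3, 20.2 and 19.5 after training against 19.5, 17.7, 16.5, 16.1 and 14.8. Sedentary heart 1 lay among the training hearts, and the log2 fold change was 0.17 (0.01 to 0.33, adjusted p = 0.222). Without that heart it was 0.22 and passed (adjusted p = 0.0783). Parp14, an ADP-ribosyltransferase, had the highest CPM of the 20 and next to no difference: 28.6, 37.1, 30.6, 29.0 and 30.9 CPM against 31.5, 33.3, 28.9, 27.1 and 33.7, a log2 fold change of 0.02 (−0.15 to 0.18).

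The rest of the group spanned known effector types. The guanylate-binding GTPases, which attack vacuoles of pathogens, were at 0.20 (Gbp2), 0.24 (Gbp3) and 0.02 (Gbp7). Isg15, a ubiquitin-like modifier, was at 0.17 and Usp18, which removes it, at −0.03. The dynamin-like Mx1, disrupted in C57BL/6, was at 0.26 and Mx2 at 0.21, with wide intervals that reached 0.63 and 0.57. Rsad2 (viperin) was at −0.14, Bst2 (tetherin) at 0.12, Ifi44 at 0.10, the RNA sensor Ifih1 at 0.05 and Xaf1, a partner of the apoptosis inhibitor XIAP, at −0.03. All of these missed the threshold.

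Of the 8 IRF and STAT factors, none was called in edgeR or DESeq2, 1 had an unadjusted p below 0.05 in edgeR, and 3 were above 0 and 5 below (median −0.03). That 1 was Irf1, a factor that drives class I and guanylate-binding protein genes downstream of interferon gamma. It was at 18.1, 21.5, 19.5, 17.3 and 17.4 CPM in training and 16.5, 15.9, 15.6, 17.5 and 17.6 CPM in sedentary hearts, with a log2 fold change of 0.18 (SE 0.0659, 0.03 to 0.32, adjusted p = 0.158). Training hearts 1, 2 and 3 were above every sedentary heart and training hearts 4 and 5 were not.

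Irf3, the factor that turns on the interferon beta gene after viral sensing, was the most abundant of the group at 24.6 ± 2.67 TPM in training and 22.5 ± 1.79 TPM in sedentary hearts (SD, n = 5 each). It ran at 26.8, 25.2, 24.5, 27.0 and 27.7 CPM against 25.9, 25.4, 24.1, 25.3 and 26.8, a log2 fold change of 0.04 with a narrow interval of −0.06 to 0.14. Irf2, a repressor at many of the sites that IRF1 activates, was at 22.3, 22.3, 22.7, 23.7 and 22.8 CPM against 23.2, 21.1, 25.0, 23.3 and 24.4 (−0.04, −0.15 to 0.07). Both were close to level between groups. Irf8, a factor of macrophages, dendritic cells and B cells, was at 4.22, 5.44, 4.68, 4.05 and 4.15 CPM against 6.01, 4.32, 5.40, 4.35 and 4.82 (−0.15, −0.39 to 0.10), highest in sedentary heart 1. Stat2 and Irf9, which are parts of the complex that binds the ISRE, were at −0.03 and 0.01, and the interferon-induced Irf7 was at −0.06 and Irf5 at −0.07.

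The class I chain genes were the most abundant of the 39. B2m, the light chain of every class I molecule, was at 212 ± 34.3 TPM in training and 216 ± 18.7 TPM in sedentary hearts, H2-K1 at 153 ± 22.6 and 133 ± 9.00 TPM, and H2-D1 at 104 ± 12.7 and 96.1 ± 13.1 TPM (SD, n = 5 each). None of the 6 was called in edgeR or DESeq2, none had an unadjusted p below 0.05 in edgeR, and 3 were above 0 and 3 below. The heavy chain gene H2-K1 was at 117, 146, 119, 114 and 124 CPM after training and at 116, 120, 118, 98.5 and 105 CPM in sedentary hearts. Only training hearts 2 and 5 exceeded all sedentary hearts, and the log2 fold change was 0.15 (SE 0.0723, −0.0046 to 0.31, adjusted p = 0.263 in edgeR).

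The heavy chain gene H2-D1 was at 148, 188, 165, 147 and 158 CPM against 176, 161, 174, 139 and 150 (0.01, −0.15 to 0.18). B2m was at 148, 191, 164, 135 and 138 CPM against 160, 174, 175, 150 and 181 (−0.11, −0.30 to 0.07), with 3 training hearts under every sedentary heart and 1 above every sedentary heart. H2-K1 and H2-D1 share long stretches of sequence, so reads can be split between them. Their RSEM counts were 0.989 and 1.03 times their unique counts, and their RSEM log2 fold changes were 0.15 and 0.02. The peptide transporter gene Tap1 was at −0.03 and tapasin (Tapbp), which holds class I molecules to the transporter, at 0.06.

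No class II gene passed the threshold. The estimates of 4 of 5 were below 0 with a median of −0.10, none was called in edgeR or DESeq2, and none had an unadjusted p below 0.05 in edgeR. Cd74, the invariant chain that guides class II molecules, was at 59.9, 93.9, 77.2, 74.7 and 60.8 CPM in training hearts and at 73.1, 82.2, 74.6, 79.7 and 82.7 CPM in sedentary hearts (−0.10, −0.31 to 0.12). The class II alpha chain gene H2-Aa was at 24.2, 38.5, 28.4, 30.5 and 24.6 CPM against 31.0, 36.4, 30.8, 34.9 and 36.3 (−0.21, SE 0.108, −0.44 to 0.02, adjusted p = 0.302 in edgeR). In both genes training hearts 1 and 5 were lowest and training heart 2 was highest of all 10. H2-Ab1 was at −0.09 and H2-Eb1, which overlaps H2-Aa on the other strand, at −0.16.

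Ciita, the coactivator that class II transcription depends on, was the least abundant of the 39 at 0.260 ± 0.0187 TPM in training and 0.222 ± 0.0691 TPM in sedentary hearts (SD, n = 5 each). Its CPM was 1.22, 1.15, 1.37, 1.37 and 1.19 against 1.71, 1.05, 1.12, 0.797 and 1.10, and its log2 fold change was 0.12 (−0.28 to 0.52). The heart with most Ciita, sedentary heart 1, also had the highest summed B cell markers, 15.3 CPM. Training heart 4 followed with 9.68 CPM, and the other 8 hearts had 0.911 to 2.25 CPM over the 8 B cell genes. All 8 B cell markers, among them Ms4a1 and Cd79a, were highest in sedentary heart 1. That heart was also the highest in summed macrophage (542 CPM), monocyte and neutrophil (12.2 CPM), dendritic cell (17.5 CPM, mostly the gene Zbtb46) and T and NK cell markers (3.78 CPM). Training hearts 3 and 4 had the same Ciita, 1.37 CPM, with 2.25 and 9.68 CPM of B cell markers. The source of Ciita RNA was not tested.

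The summed level of the 5 class II genes was 126, 194, 156, 159 and 127 CPM in training hearts and 153, 180, 158, 167 and 175 CPM in sedentary hearts. The 14 macrophage markers summed to 419 to 522 CPM after training and to 439 to 542 CPM in sedentary hearts, and none was called. The 8 dendritic cell markers summed to 12.9 to 16.5 CPM and 14.2 to 17.5 CPM, and the 12 T and NK cell markers to 3.14 to 3.69 CPM and 2.16 to 3.78 CPM. Most of the dendritic cell sum was 1 gene, Zbtb46, at 381 to 615 counts a heart. No other marker of that list exceeded 27 counts in a heart, so the sum says little about dendritic cells as such. Training heart 2, with the most class II RNA, had 469 CPM of macrophage markers, 16.2 CPM of dendritic cell markers and 1.86 CPM of B cell markers, all within the range of the other hearts. Training heart 1 was the lowest of the 10 in summed class II RNA, in macrophage markers (419 CPM) and in dendritic cell markers (12.9 CPM). Flt3, of the dendritic cell list, went the other way, with its highest count (15) in that heart.

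**Figure D3:**
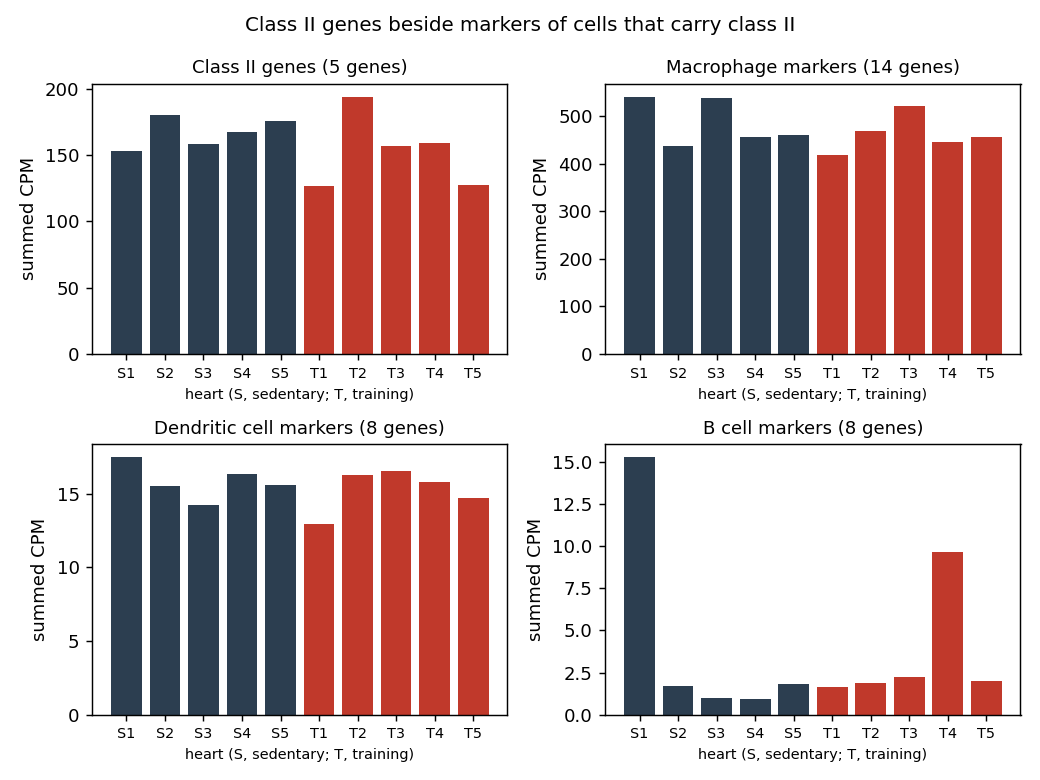
Summed CPM in each heart (bars, axes from 0; S sedentary in blue, T training in red) of the 5 class II genes and of macrophage, dendritic cell and B cell markers. The dendritic cell sum is mostly the gene Zbtb46. Class II is highest in T2 at 194 CPM, macrophage markers in S1 at 542 CPM, and B cell markers stand out in S1 at 15.3 CPM and T4 at 9.68 CPM.

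Hearts of 1 group also differed among themselves. Training heart 2 was the highest of the 10 hearts in 25 of the 39 genes (64.1%), while it was highest in 8.62% of all tested genes. The count was 14 of 20 for interferon-induced genes, 3 of 8 for IRF and STAT factors, 5 of 6 for class I and 3 of 5 for class II. It was the lowest heart in 0 of 39. Without TMM factors it was highest in 26 of 39 genes, and on the TPM of the authors in 24 of 39. These counts describe 1 animal that was singled out after its values were seen, and they carry no test.

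Set against the mean of the other 4 training hearts, training heart 2 had a median ratio of 1.27 over the 39 genes and of 0.996 over all tested genes. The ratio was largest for Nlrc5, the coactivator of class I genes, at 7.73 CPM against 3.61 to 4.22 CPM in the other training hearts and 4.38 to 5.59 CPM in sedentary hearts. Next came Ifit1 (1.50 times the mean of the other 4), Irf7 (1.48), Isg15 (1.48) and Gbp3 (1.46). It was 1.43 for H2-Aa, 1.37 for Tap1, 1.24 for H2-K1 and 1.22 for H2-D1. In Ifi27, Ifih1, Xaf1, Irf2, Irf3 and Ciita the ratio was 0.879 to 0.981, below 1.

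Of the further genes of the pathway, some lists held many for which the same heart was highest. Training heart 2 was highest in 13 of 20 further class I pathway genes, including the immunoproteasome subunits Psmb8, Psmb9 and Psmb10, the transporter gene Tap2 and the nonclassical H2-Q4 at 32.4 CPM against 19.6 to 27.9 CPM in the other 9 hearts. It was highest in 22 of 62 further interferon-induced genes in 1 of 16 further class II pathway genes and in 0 of 5 further IRF genes. At the other end, sedentary heart 4 was the lowest of the 10 in 13 of the 39 genes (33.3%) and in 11.6% of all tested genes, and sedentary heart 5 was the highest sedentary heart in 22 of 39 (56.4%) and in 21.7% of all tested genes.

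**Figure D4:**
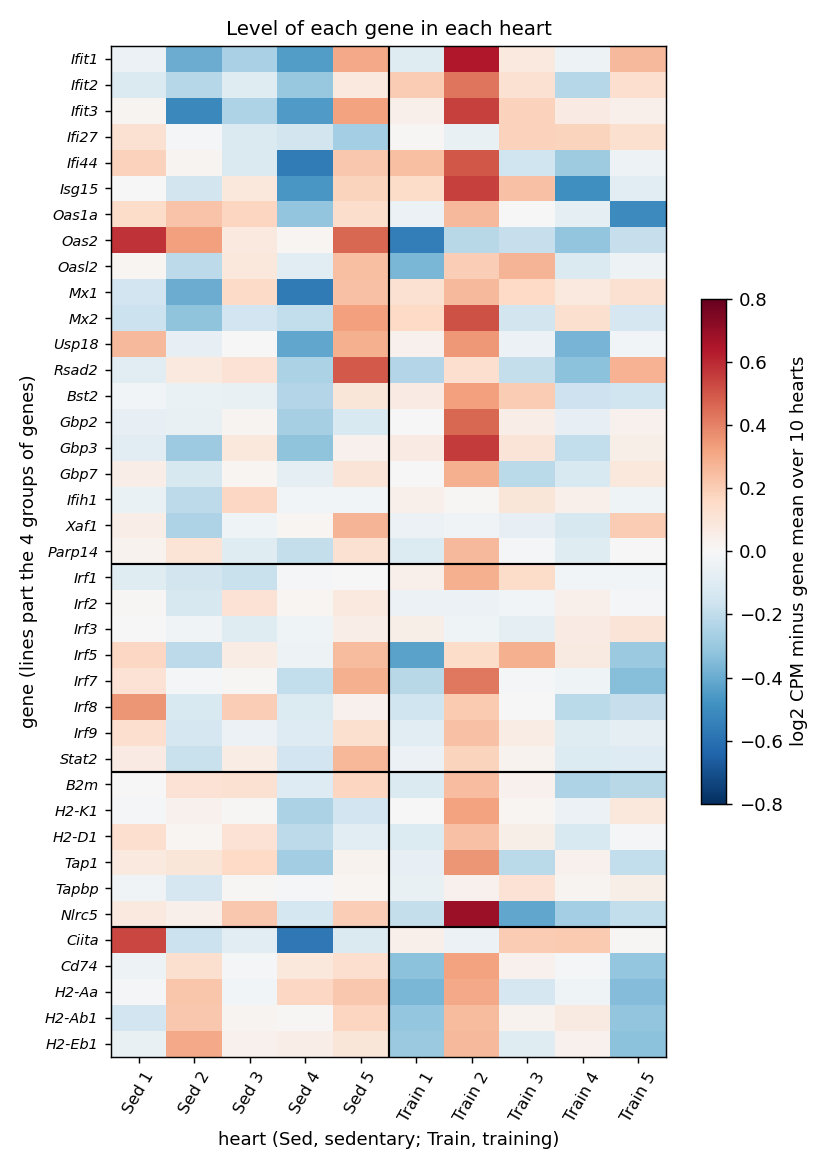
Log2 CPM of each of the 39 genes minus that gene's mean over the 10 hearts (colour scale, red above and blue below the mean; values beyond 0.8 take the end colour), with sedentary hearts on the left and training hearts on the right. The column of training heart 2 is red in most rows of all 4 groups, where it was highest of 10 in 25 of 39, and Oas2 is the row that splits at the centre line.

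Leaving out training heart 2 changed the comparison of the groups. That heart was singled out for its high values in these genes, so lower estimates for most of them follow from the choice. Without it the median log2 fold change over the 39 genes was −0.05, with 0.04 for interferon-induced, −0.06 for IRF and STAT, −0.09 for class I and −0.20 for class II genes. Nlrc5 moved from −0.10 to −0.35 (adjusted p = 0.0664 in edgeR) and H2-Aa from −0.21 to −0.33 (adjusted p = 0.0422), both then called lower after training. That fit called 1252 of all genes, against 1084 in the fit with every heart. Ifit1 moved from 0.33 to 0.19. Oas2, for which training heart 2 was at 1.06 times the mean of the other 4, stayed called.

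Spread within groups was wide for interferon-induced genes and, in training hearts, for class I and class II genes. It was closer to that of all tested genes for IRF and STAT factors and in sedentary hearts for class I and class II. The median coefficient of variation was 16.0% in training and 13.4% in sedentary hearts for interferon-induced genes, 17.3% and 9.74% for class II, 12.7% and 9.00% for class I, and 9.83% and 10.5% for IRF and STAT factors, against 8.36% and 8.35% for all tested genes. The 38 genes other than Oas2 had 95% intervals within −0.49 to 0.68 on the log2 scale, and 31 of these intervals lay within 0.5 of 0 on both sides. A change of 1 log2 unit was thus outside every interval of the 38.

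Upstream of these genes, 6 interferon genes were looked at, none of them an interferon alpha gene. Ifnb1, Ifnk, Ifne, Ifnl2 and Ifnl3 had 0 counts in all 10 hearts, and a count of 0 allows up to 0.102 CPM in the smallest library (3 counts, counting error only). Ifng had 2 counts in all hearts together. Of 14 tested receptors, kinases, STATs and inhibitors outside the 39, 1 was called (7.14%, against 7.01% of all tested genes): Jak1, the kinase shared by the interferon receptors, was at 202 ± 6.18 CPM in training and 180 ± 5.96 CPM in sedentary hearts (SD, n = 5 each), a log2 fold change of 0.16 (adjusted p = 0.0359 in edgeR). The receptor genes Ifnar1, Ifnar2, Ifngr1 and Ifngr2 lay between −0.06 and 0.11.

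In the sensing arm, 1 of 19 tested genes was called (5.26%, against 7.01% of all tested genes). Mavs, the mitochondrial adaptor of the RNA sensors, was lower after training at 79.6 ± 4.93 against 94.6 ± 4.99 CPM (log2 fold change −0.25, adjusted p = 0.0231 in edgeR). Its training hearts, at 74.2 to 84.6 CPM, were all below the sedentary hearts, at 86.1 to 99.3 CPM.

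Of 62 further interferon-induced genes, 5 were called (8.06%, close to the 7.01% of all tested genes), 2 higher and 3 lower. The GTPases Ifi47 (log2 fold change 0.54, adjusted p = 0.0565 in edgeR) and Gbp5 (0.48, adjusted p = 0.05) rose, at 2.87 against 1.97 CPM and 8.22 against 5.89 CPM. Ifi205 (−0.65, adjusted p = 0.0402) and Ifi211 (−0.47, adjusted p = 0.0429), both of the p200 family of DNA-binding proteins on chromosome 1, fell, as did the Schlafen gene Slfn5 (−0.24, adjusted p = 0.032). Training heart 2 was the highest of 10 in Ifi47 and Gbp5, at 3.89 and 10.6 CPM, and the other training hearts also lay above the sedentary hearts in both. Several of these calls were lost without 1 heart, with log2 fold changes of like size. Ifi47 missed the threshold without sedentary heart 3 (0.53, adjusted p = 0.122) or 4 (0.49, adjusted p = 0.12), Gbp5 without sedentary heart 2 (0.44, adjusted p = 0.11) or 4 (0.42, adjusted p = 0.107), Ifi205 without training heart 4 (−0.59, adjusted p = 0.101) or sedentary heart 3 (−0.60, adjusted p = 0.103), and Ifi211 without training heart 4 (−0.45, adjusted p = 0.101).

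Of 20 further class I pathway genes, 2 were called (10.0%, against 7.01% of all tested genes), both higher: Canx (0.18, adjusted p = 0.0307 in edgeR) and Pdia3 (0.14, adjusted p = 0.0955). Both encode chaperones of the endoplasmic reticulum that fold many glycoproteins besides class I chains. None of 16 further class II pathway genes was called in edgeR, where 2 had an unadjusted p below 0.05, and DESeq2 called Marchf8 higher. H2-Ea, which C57BL/6 mice carry as a null allele, had 0 counts in all 10 hearts. Among further IRF family and IRF-binding genes, Irf2bpl was higher, at 40.1 ± 1.33 against 34.3 ± 2.44 CPM (0.23, adjusted p = 0.0343 in edgeR). Pdia3 was called in 9 of 19 alternative fits, with log2 fold changes of 0.09 to 0.20 over the 19. With the atrial marker score in the fit, Irf2bpl remained called, and Jak1, Mavs, Ifi47, Gbp5, Ifi205, Ifi211, Slfn5, Canx and Pdia3 lost their calls with the sign of each kept.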

How the data were processed

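RNA from 10 whole mouse hearts was sequenced by the authors (stranded poly-A libraries, single reads of 1 pool) and aligned to GRCm39 with STAR 2.7.10a. The deposited raw counts per gene hold uniquely mapped reads, and the reverse-strand column was used, which held 94.9 to 95.6% of stranded counts. The expected counts and the TPM deposited by the authors came from RSEM 1.3.3. Expected counts were rounded and served as an alternative, and TPM served for levels between genes. Symbols came from GENCODE on GRCm39.

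From the counts, edgeR 4.0.16 in R 4.3.3 was run with filterByExpr, TMM factors and a quasi-likelihood F test of training against sedentary hearts, with Benjamini-Hochberg adjustment over 15454 genes and an FDR below 0.1 as the threshold. The study used DESeq2, which was an alternative here (version 1.42.0). The code was tested on simulated data. Intervals are 95% and come from the same fit. Each mouse gave 1 library, and p-values measure the spread between these mice. Replicate pairs differed beyond counting noise (chi-square per degree of freedom 6.16 to 27.4). Alternatives were other scalings, filters, count types, a replicate block, an atrial marker score and leaving out each heart. The members and lists were chosen with earlier results of these data known. Values in every heart are given for genes called, and in each group of genes for the 2 of highest mean CPM, that of lowest p and those of largest and smallest fold change. Genes named for training heart 2 were chosen after their values were seen. Counts of sequence matches and of hearts are descriptions without a test. Values of some listed genes are not reported here.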

Additional observations from a re-analysis of the deposited data

Results flagged for a closer look

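In each group of 5 hearts, a gene's highest or lowest CPM was marked when its gap to the nearest heart exceeded 0.71 of the group's range, a limit that chance passes in about 1 of 20 groups. Of 78 groups (39 genes in 2 groups), 7 were marked, 6 of them for a high value. Training heart 2 gave 4: Ifit3 at 9.36 CPM (nearest training heart 7.28), Gbp2 at 23.5 CPM (17.7), Parp14 at 37.1 CPM (30.9) and Nlrc5 at 7.73 CPM (4.22). The other 3 came from 3 hearts, with Xaf1 at 8.43 CPM in training heart 5 (7.16), Mx2 at 1.97 CPM in sedentary heart 5 (1.41) and Oas1a low at 1.48 CPM in sedentary heart 4 (2.03). Genes of 1 pathway are not independent of each other.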

How the results depend on the processing

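The call for Oas2 remained in 18 of 19 alternative fits (−0.66 to −0.52, adjusted p = 7.38e-05 with DESeq2) and was lost with the atrial marker score (−0.603, adjusted p = 0.12). Over all genes the count was 505 at an FDR below 0.05, 86 with the atrial marker score, and 512 to 1490 without 1 heart, and library totals alone gave 1029 higher and 339 lower with a shift of 0.05 in the median. With the atrial marker score no interferon-induced gene was called (0), nor any gene of the receptor and JAK list (0), the sensing list (0), the further interferon-induced list (0) or the further class I list (0), while 1 further class II gene (Rfxank, lower) and 1 further IRF gene (Irf2bpl) were, and Ciita was at −0.124. With library totals alone Ifit2 joined Oas2 (2 called), Irf1 was called (0.230), Irf2 was at 0.014, 5 further class I genes passed, and 1 further class II gene did (Marchf8, also called by DESeq2, 1). With counts of both strands Irf1 was called (0.217, so 1 factor). The further class I count was 1 at an FDR below 0.05, with no filter and with RSEM counts, Canx each time. Without 1 heart, counts ran from 1 to 2 for interferon-induced genes (Ifit2 without training heart 4, Ifi27 without sedentary heart 1, Ifit3 without sedentary heart 5), 0 to 1 for class I (Nlrc5) and for class II (H2-Aa), 3 to 7 for further interferon-induced, 1 to 3 for further class I and 0 to 1 for further class II genes. In those fits Parp14 ran from −0.054 to 0.049 and H2-D1 from −0.048 to 0.050, and over all fits they reached 0.13 (atrial marker score) and 0.06 (library totals alone). Hearts of the same replicate number had residual correlations of −0.097 to 0.159. Pairs of unlike number were not computed, so whether the numbers pair the hearts was not tested. The replicate block gave 1137 genes over all, the same counts in the 4 groups of the 39, and 8 further interferon-induced genes in place of 5. The fits on the further lists were chosen after seeing the data. The cause of these shifts was not tested. Genes with under 30 counts a heart, such as Oas3, had wide intervals.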
